A study of Mus musculus with 10 samples.

Results

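A set of 10 genes of bone morphogenetic protein (BMP) signalling was followed across sorted cells of the mouse intestinal crypt: the receptors Bmpr1a, Bmpr2 and Acvr2a, the co-receptor Rgmb, the signal transducer Smad4, the inhibitory SMADs Smad6 and Smad7, and the target genes Id1, Id2 and Id3. They are 10 of the 18820 genes that could be named on the array. Each was taken from probe sets that carry its symbol alone, keeping the probe set with the highest mean over the 10 arrays, and each of the 10 genes had 1 such probe set.

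The cells came from mouse intestines and were sorted on a pair of reporters. The Lgr5-EGFP-ires-CreERT2 allele places green fluorescent protein under the promoter of Lgr5, a receptor gene of crypt base stem cells, and the Ki67-TagRFP allele adds a red fluorescent protein to the end of the Ki67 protein, which cycling cells carry. High and medium green fluorescence, each with high or low red fluorescence, gave 4 groups: 4 arrays for Lgr5-medium Ki67-high and 2 for each other group. The study's title speaks of fast and slow cycling populations. Total RNA of each sample was hybridised to an Affymetrix Mouse Gene ST 1.1 array. All 4 groups rest on both reporters, no group is free of them, and no treatment that would activate CreERT2 is named. The gates follow reporter brightness, so "Lgr5 medium" is a range of green fluorescence and "Ki67 low" a range of red fluorescence. The sources used here give no age, sex or intestinal region, and do not say whether replicates are separate mice. P-values therefore rest on sample-to-sample spread that could be purely technical.

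In BMP signalling, a secreted ligand brings together type I receptors such as Bmpr1a and type II receptors such as Bmpr2 and Acvr2a, and the type I receptor phosphorylates receptor SMADs, which enter the nucleus with Smad4. Id genes are direct targets, and Smad6 and Smad7 are induced by the pathway and inhibit it. In the intestine, BMP activity is known to be low at the crypt base, where antagonists from surrounding cells act, and higher toward the villus, where it favours differentiation.

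The RefSeq sequences around the start sites are shown for the member whose level differed between the groups, Rgmb, and for Smad6, whose start carries a known SMAD-binding sequence. Smad4, Smad7 and Id1 were left out of the motif search, so nothing is said about their starts. RefSeq windows on build GRCm38.p6, from 250 bases before to 50 bases after a start, were used for the other 7 of the 10 members. Each was searched on both strands for 4 motifs: the SMAD palindrome GTCTAGAC, the GC-rich SMAD motif GGCGCC, the TCF motif CTTTGAT through which Wnt signalling acts, and TATAAA, which was added after the sequences had been read. The Rgmb stretch below is the part before its most upstream start, on the minus strand of chr17:15831247-15831496, with TATAAA in capitals. The Smad6 stretch holds 30 bases across its start, on the minus strand of chr9:64022045-64022074, with GTCTAGAC in capitals.
Rgmb: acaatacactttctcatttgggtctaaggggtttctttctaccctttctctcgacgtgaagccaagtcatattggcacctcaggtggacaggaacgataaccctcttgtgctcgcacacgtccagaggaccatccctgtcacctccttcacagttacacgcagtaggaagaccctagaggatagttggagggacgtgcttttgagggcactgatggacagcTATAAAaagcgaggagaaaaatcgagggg
Smad6: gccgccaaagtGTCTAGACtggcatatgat
The palindrome in Smad6 begins at position -4 relative to the start, and 0.213% of the 32851 windows hold it. TATAAA begins at position -29 at the most upstream of the 3 Rgmb starts and at -210 at the second, and is absent at the third. Of all windows, 13.6% hold that motif. GGCGCC, found in 11.9% of windows, lay at -198 in Bmpr1a, -105 in Bmpr2, -231 in Id2 and -21 at the second of the 3 Rgmb starts. No motif searched was found in the Acvr2a and Id3 windows, and CTTTGAT, present in 3.73% of windows, was in none of the windows of the 7 members. These matches describe letters in a window and nothing about binding.

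The arrays were alike in their distributions, with medians over all probe sets from 4.23 to 4.40. Replicates of a group correlated at 0.985 to 0.995 across all probe sets, which are not independent. Lgr5-medium Ki67-high replicate 4 stood lowest in its mean correlation with all other arrays of any group (0.986) and had an array weight of 0.294 where 1 is average. Lgr5 itself, on the log2 scale, was 9.39 and 9.38 in Lgr5-high Ki67-high, 10.02 and 10.43 in Lgr5-high Ki67-low, 7.39, 7.56, 7.29 and 7.32 in Lgr5-medium Ki67-high, and 8.76 and 8.41 in Lgr5-medium Ki67-low, so its order followed the green gates at each Ki67 level. The transcript of Ki67, Mki67, was 0.11 lower in Ki67-low than Ki67-high cells at Lgr5 high and 0.29 lower at Lgr5 medium, neither past the threshold (limma, adjusted p = 0.9998 and 0.249). The epithelial genes Epcam (11.4 to 11.8) and Krt8 (12.4 to 12.8) were high on every array. Of 16 stromal and endothelial markers, Pecam1 lay between 2.69 and 2.997 and Col1a1 between 4.001 and 4.45, while Vim was 8.61 and 8.37 in Lgr5-medium Ki67-low and 5.62 to 6.35 elsewhere (2.503 higher than in Lgr5-medium Ki67-high, limma adjusted p = 6.21e-05). Of 20 immune markers, 17 had a positive Ki67 low minus Ki67 high difference at Lgr5 medium (median 0.49), and 1 passed in each direction (Laptm5 0.63, Itgam -0.62). The pan-leukocyte gene Ptprc ran from 4.25 to 5.77, with its highest value in replicate 2 of Lgr5-medium Ki67-low.

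Of the 10 genes, Rgmb differed between the Lgr5 levels, and the other 9 did not pass the test in any comparison. Rgmb encodes a membrane-anchored co-receptor that binds BMP ligands and the receptor neogenin. Its log2 level was 9.35 and 9.30 in Lgr5-high Ki67-high cells, 9.55 and 9.90 in Lgr5-high Ki67-low cells, 8.36, 8.07, 8.04 and 7.82 in Lgr5-medium Ki67-high cells, and 8.88 and 8.62 in Lgr5-medium Ki67-low cells. All 4 Lgr5-high arrays lay above all 6 Lgr5-medium arrays, and the 4 groups followed each other without overlap. The group means in falling order were 9.72 ± 0.25 (SD, n = 2) in Lgr5-high Ki67-low, 9.33 ± 0.034 (SD, n = 2) in Lgr5-high Ki67-high, 8.75 ± 0.19 (SD, n = 2) in Lgr5-medium Ki67-low and 8.07 ± 0.22 (SD, n = 4) in Lgr5-medium Ki67-high. The first and second of these did not differ in the test.

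Averaged over both Ki67 levels, Rgmb was 1.11 log2 units higher at Lgr5 high than at Lgr5 medium (SE 0.12), a fold of 2.17 with a 95% interval from 1.81 to 2.59 (limma with Benjamini-Hochberg adjustment over 18820 genes, adjusted p = 0.00133). Of all genes, 5.92% passed in this comparison, and 1 of the 10 members did. The share of genes whose Lgr5-high and Lgr5-medium arrays did not overlap was 7.53%, and Rgmb was the 1 member among them. A larger positive difference than that of Rgmb was seen for 10 genes. In bulk samples of this kind, fewer cells of a type and less RNA per cell cannot be told apart.

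Within Ki67-high cells, Rgmb was 2.39-fold higher at Lgr5 high (95% interval 1.89 to 3.02; limma, adjusted p = 0.0135), where 0.935% of genes passed and 1 member did. Within Ki67-low cells it was 1.96-fold higher (1.496 to 2.58; limma, adjusted p = 0.0169), where 2.84% of genes passed and 1 member did. Both calls rest on few arrays. The first was lost without either Lgr5-high Ki67-high array (limma, adjusted p = 0.261 without replicate 1 and 0.159 without replicate 2), and the second without replicate 2 of Lgr5-high Ki67-low or of Lgr5-medium Ki67-low (0.165 and 0.110). Testing every entry of the table, named or not, also ended both calls (limma, adjusted p = 0.0610 at Ki67 high and 0.0604 at Ki67 low), and fitting the compared pair of groups alone ended the one at Ki67 low (0.0521).

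Rgmb was also higher in Ki67-low than in Ki67-high cells at Lgr5 medium, by 0.68 log2 units (SE 0.15), or 1.60-fold with an interval from 1.26 to 2.02 (limma, adjusted p = 0.0394). In that comparison 3.58% of genes passed and 1 member did. At Lgr5 high the difference was 0.40 with an interval from 0.0032 to 0.79, and it did not pass (limma, adjusted p = 0.9998), where 0.00531% of genes passed and 0 members did. The Ki67 differences at the 2 Lgr5 levels were not shown to differ from each other (interaction -0.28, interval -0.80 to 0.24, limma adjusted p = 0.835), and 1.04% of genes passed the interaction with 0 members among them. Averaged over Lgr5 levels the Ki67 difference of Rgmb was 0.54 (limma, adjusted p = 0.0623), where 1.24% of genes passed and 0 members did. The call at Lgr5 medium was lost without either Lgr5-high Ki67-high array, without Lgr5-medium Ki67-high replicate 2 or 3, or without either Lgr5-medium Ki67-low array (limma, adjusted p from 0.0716 to 0.395, the last without Lgr5-medium Ki67-low replicate 1, where the difference was 0.55). It was also lost when every entry of the table was tested (0.109) and when the compared groups were fitted alone (0.0942).

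**Figure D1:**
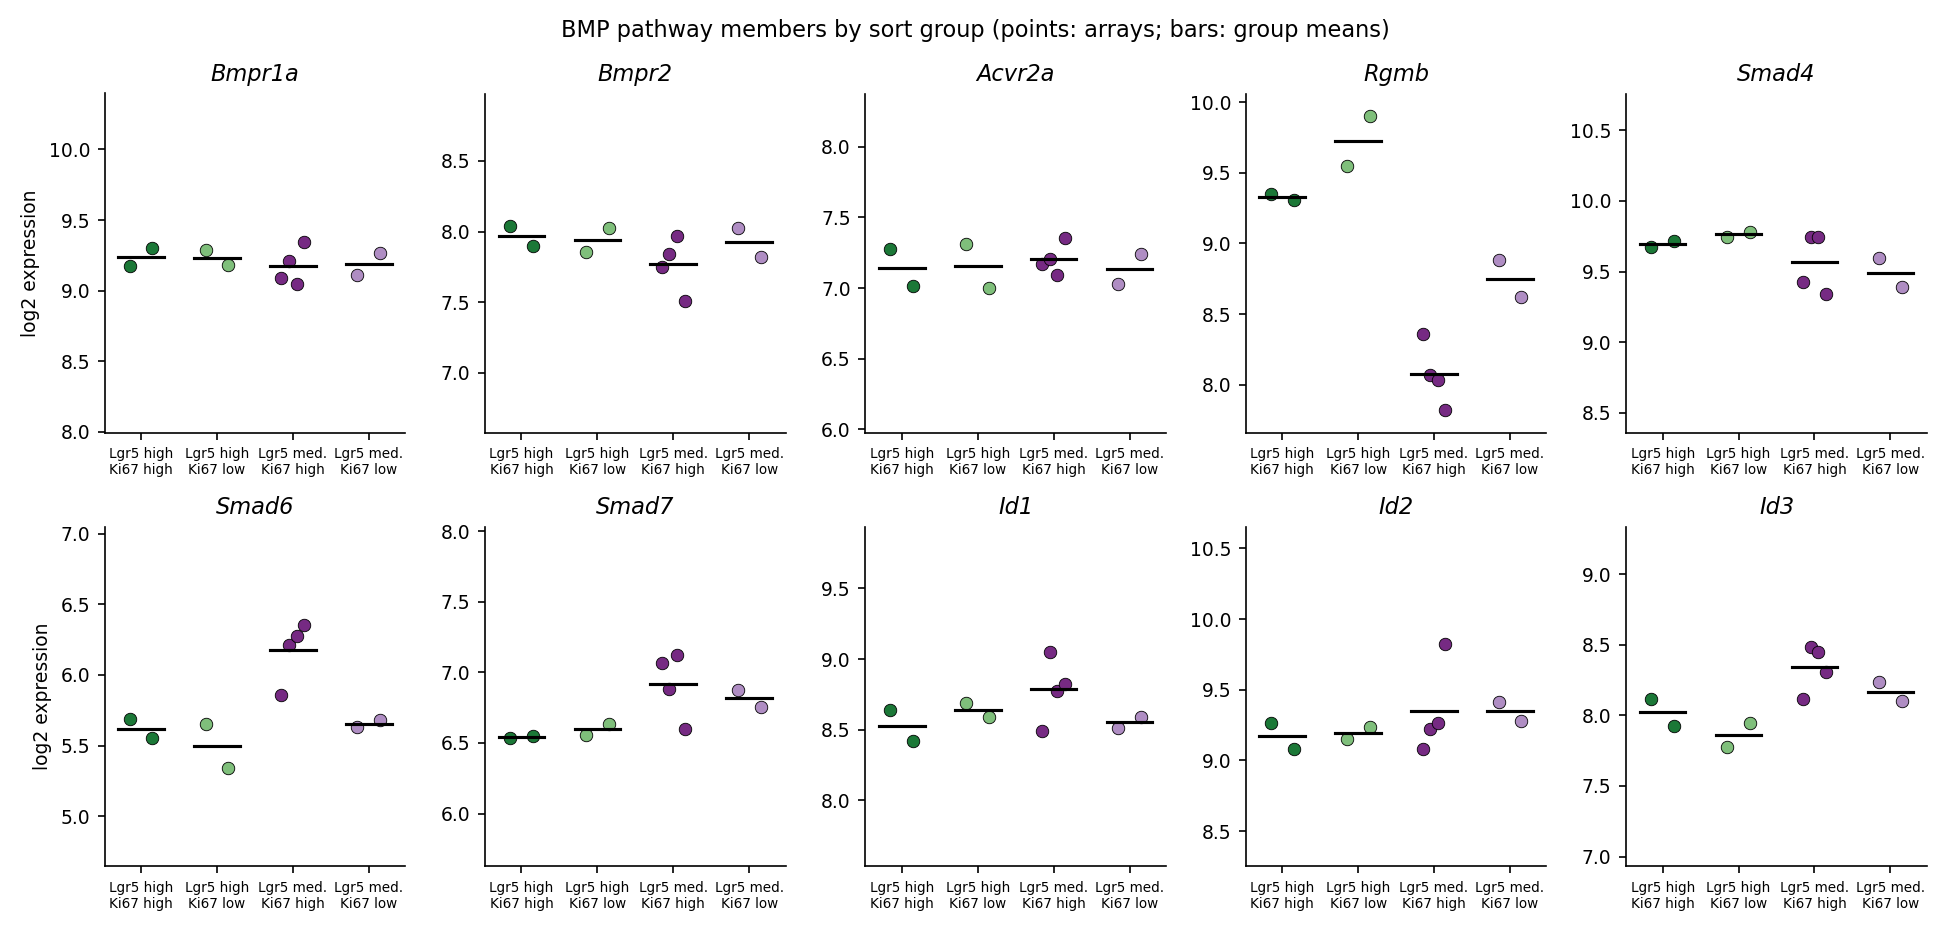
Log2 expression of each of the 10 genes in the 4 sort groups, with a point for each array and a bar at the group mean; each panel spans the same number of log2 units. Rgmb separates the Lgr5-high arrays (9.30 to 9.90) from the Lgr5-medium arrays (7.82 to 8.88), while the groups overlap in the receptor panels.

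The profile of Rgmb over the arrays was also set beside those of other genes. The genes whose profile over the 10 arrays lay closest to it, among 9224 genes above the median level, were Stra6l, Kif12, which encodes a kinesin, and Msi1, which encodes the RNA-binding protein Musashi-1. Their root mean square differences from Rgmb, after each gene was centred on its own mean, were 0.115, 0.119 and 0.138 log2 units, against 0.68 for the spread of Rgmb itself. Lgr5 ranked 272 with a distance of 0.469. The 3 genes were chosen by that distance, so their likeness is a description. Their means in the order Lgr5-high Ki67-high, Lgr5-high Ki67-low, Lgr5-medium Ki67-high and Lgr5-medium Ki67-low were 7.68, 8.11, 6.56 and 7.35 for Stra6l. For Kif12 they were 6.17, 6.40, 4.92 and 5.70, and for Msi1 7.88, 8.35, 6.77 and 7.51. All 3 shared the order of Rgmb, with Lgr5-high Ki67-low highest and Lgr5-medium Ki67-high lowest.

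**Figure D2:**
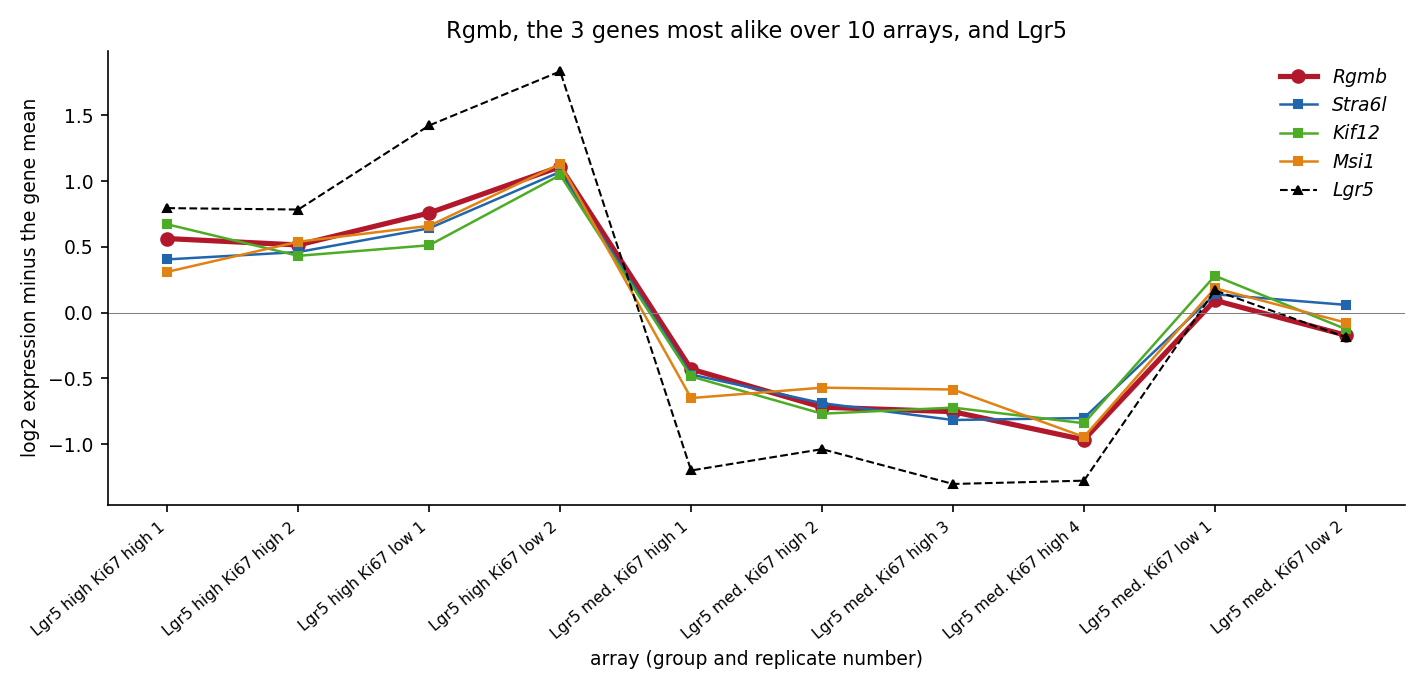
Log2 expression minus each gene's mean, on the vertical axis, over the 10 arrays for Rgmb, Stra6l, Kif12, Msi1 and Lgr5. Stra6l, Kif12 and Msi1 lie within root mean square distances of 0.115 to 0.138 of Rgmb, while Lgr5 (0.469) swings further in both directions.

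The receptors showed small differences at this precision. Bmpr1a, the type I receptor, was 9.18 and 9.30 in Lgr5-high Ki67-high, 9.28 and 9.18 in Lgr5-high Ki67-low, 9.09, 9.21, 9.05 and 9.34 in Lgr5-medium Ki67-high, and 9.11 and 9.27 in Lgr5-medium Ki67-low. The groups overlapped throughout. Between Lgr5 levels, averaged over Ki67, it differed by 0.055 with a 95% interval from -0.12 to 0.23. Bmpr2, a type II receptor that binds BMPs, was 8.04 and 7.90, then 7.85 and 8.03, then 7.75, 7.84, 7.97 and 7.51, then 8.03 and 7.82 in the same order of groups. Its Lgr5 difference was 0.11 (interval -0.11 to 0.33). Acvr2a, a type II receptor shared by activins and BMPs, ran from 6.997 to 7.36, and its groups overlapped. Its Lgr5 difference was -0.021 (interval -0.23 to 0.19). These intervals, for the averaged Lgr5 difference, leave room for differences out to either bound and do not show that the receptors were equal. Intervals of the single comparisons were wider, such as -0.085 to 0.49 for the Lgr5 difference of Bmpr2 at Ki67 high.

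Smad4, the shared partner of receptor SMADs, was 9.67 and 9.72 in Lgr5-high Ki67-high, 9.75 and 9.78 in Lgr5-high Ki67-low, 9.42, 9.75, 9.75 and 9.34 in Lgr5-medium Ki67-high, and 9.60 and 9.39 in Lgr5-medium Ki67-low. Its Lgr5 difference was 0.20 (limma, adjusted p = 0.301). The Lgr5-medium Ki67-high arrays overlapped those of Lgr5-high Ki67-high and Lgr5-medium Ki67-low.

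Smad6, which blocks BMP type I receptors and Smad1, had its higher values in Lgr5-medium Ki67-high cells. Its log2 level was 5.86, 6.21, 6.28 and 6.36 there, against 5.69 and 5.56 in Lgr5-high Ki67-high, 5.65 and 5.34 in Lgr5-high Ki67-low, and 5.63 and 5.68 in Lgr5-medium Ki67-low. No array of the other 3 groups reached the lowest of those 4. The mean was 6.18 ± 0.22 (SD, n = 4) in that group and 5.50 to 5.66 in the others. The difference was -0.52 for Ki67 low minus Ki67 high at Lgr5 medium (SE 0.14) and -0.55 for Lgr5 high minus Lgr5 medium at Ki67 high. Neither passed (limma, adjusted p = 0.0886 and 0.0995). At Lgr5 medium, Smad6 passed with arrays centred on their medians (-0.65, limma adjusted p = 0.0392) and after replicate 1 of Lgr5-medium Ki67-high was left out (-0.63, adjusted p = 0.0183). Leaving out the same array gave -0.66 for the Lgr5 difference at Ki67 high (limma, adjusted p = 0.0443). Each of these Smad6 differences passed in only 2 of 19 alternative fits.

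Smad7, which blocks both BMP and TGF-beta receptors, was 6.54 and 6.55 in Lgr5-high Ki67-high and 6.55 and 6.64 in Lgr5-high Ki67-low. In Lgr5-medium cells it was 7.07, 6.88, 7.12 and 6.60 at Ki67 high and 6.88 and 6.75 at Ki67 low. A single Lgr5-medium array, Ki67-high replicate 4, lay within the range of the Lgr5-high arrays. The Lgr5 difference was -0.30 (SE 0.10; limma, adjusted p = 0.130). Without that array it was -0.35 and passed (limma, adjusted p = 0.0153). This Smad7 difference passed in only 2 of 18 alternative fits.

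The Id genes encode helix-loop-helix proteins without a DNA-binding region, which hold basic helix-loop-helix factors inactive. Id1 was 8.64 and 8.42 in Lgr5-high Ki67-high, 8.69 and 8.59 in Lgr5-high Ki67-low, 8.49, 9.05, 8.78 and 8.83 in Lgr5-medium Ki67-high, and 8.51 and 8.59 in Lgr5-medium Ki67-low. Its groups overlapped, and the Lgr5 difference was -0.086 (interval -0.32 to 0.15). Id2 ran from 9.08 to 9.83, with its highest value in Lgr5-medium Ki67-high replicate 4, and differed by -0.16 between Lgr5 levels (interval -0.47 to 0.14).

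Id3 was 8.11 and 7.93 in Lgr5-high Ki67-high, 7.78 and 7.94 in Lgr5-high Ki67-low, 8.12, 8.49, 8.45 and 8.30 in Lgr5-medium Ki67-high, and 8.23 and 8.10 in Lgr5-medium Ki67-low. Its highest Lgr5-high array slightly exceeded its lowest Lgr5-medium array. The Lgr5 difference was -0.31 (SE 0.090), just short of the threshold (limma, adjusted p = 0.0748), and it passed without Lgr5-medium Ki67-high replicate 1 (-0.35, adjusted p = 0.0400). It passed in only 2 of 18 alternative fits, and was -0.32 at Ki67 high and -0.31 at Ki67 low.

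At an unadjusted p under 0.05, 4 members (Rgmb, Smad6, Smad7 and Id3) stood out in the averaged Lgr5 comparison, where 20.0% of all genes did. The median difference of the 10 members was -0.053, beside 0.020 over all genes. In the single comparisons, unadjusted p was under 0.05 for 1 member in Ki67 at Lgr5 high (Rgmb, 4.53% of genes), 2 in Ki67 at Lgr5 medium (Rgmb and Smad6, 15.7%), 4 in Lgr5 at Ki67 high (15.2%) and 2 in Lgr5 at Ki67 low (Rgmb and Id3, 14.6%). It was under 0.05 for 2 members in the averaged Ki67 comparison (Rgmb and Smad6, 11.9%) and for 0 in the interaction (8.08%). Members whose arrays did not overlap numbered 3 for Ki67 at Lgr5 high (38.4% of genes), 2 for Ki67 at Lgr5 medium (24.5%), 4 for Lgr5 at Ki67 high (27.2%) and 5 for Lgr5 at Ki67 low (47.1%). Some of these counts stood above the share over all genes, such as 4 of 10 beside 15.2% and beside 20.0%. Others lay near or below it. With only 10 members and no test of the set, the counts of 0 to 5 are not read as a result about the members.

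**Figure D3:**
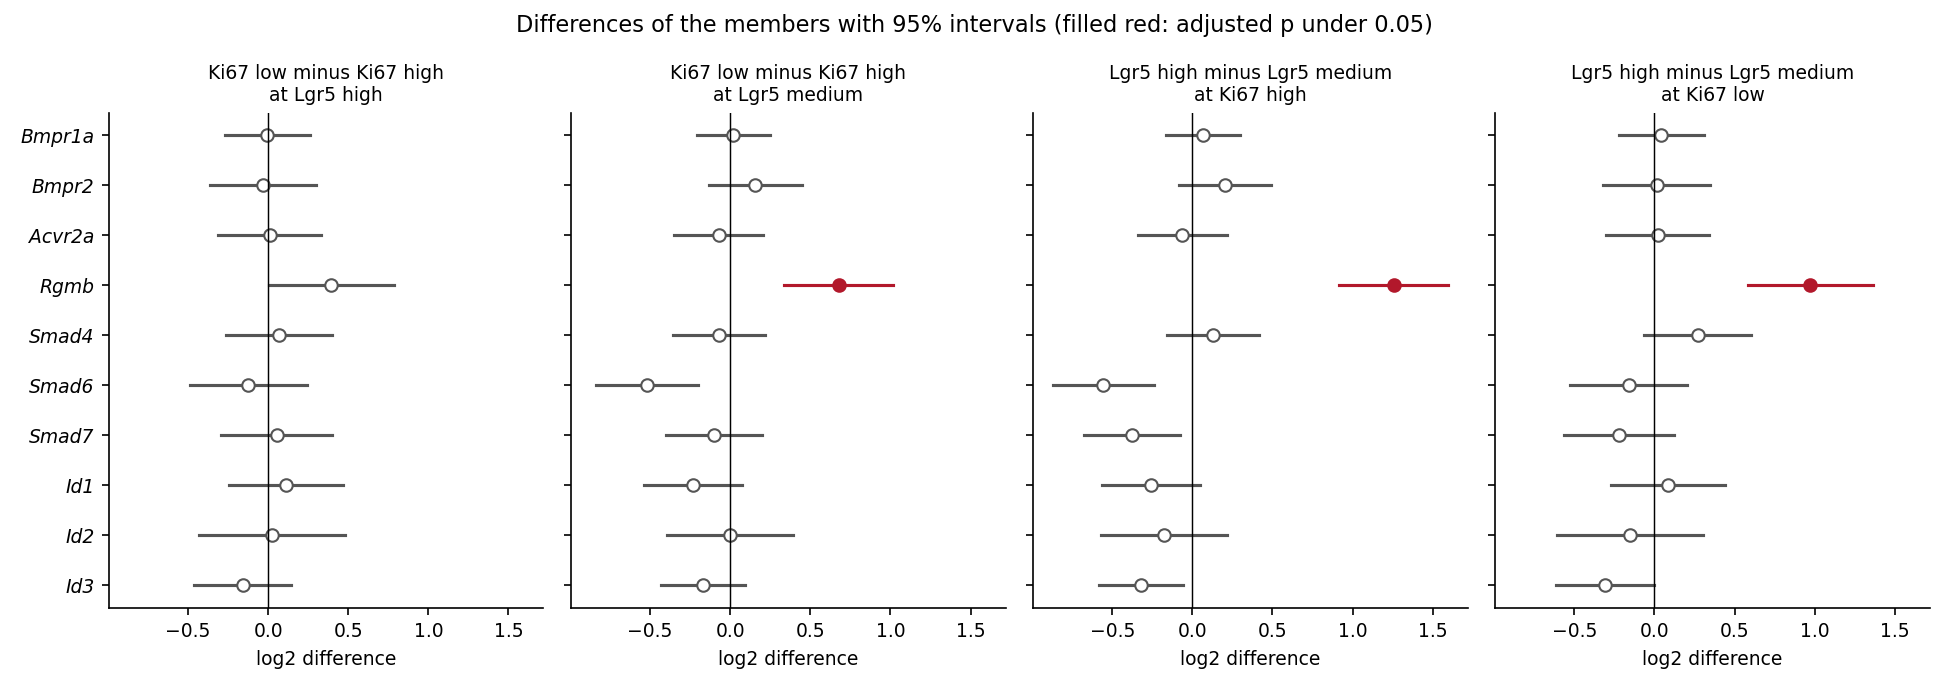
Log2 differences (points) with 95% intervals (lines) for the 10 genes in the 4 comparisons of 2 groups; filled red points passed an adjusted p of 0.05. Rgmb is filled in 3 panels (0.68, 1.26 and 0.97) and open for Ki67 at Lgr5 high (0.40), and all other genes are open.

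The rest of the pathway was read from lists of genes by role. All 14 BMP and related ligands were measured, and 0 passed in any comparison with limma (3 at an unadjusted p under 0.05 in the averaged Lgr5 comparison). The median ligand difference between Lgr5 levels was 0.12, beside 0.020 over all genes. Of 11 measured other receptors and co-receptors, 5 other SMADs and 14 intracellular SMAD regulators, 0 passed in any comparison with limma, and 3, 1 and 5 had an unadjusted p under 0.05 in the averaged Lgr5 comparison. Bmp2 came nearest among the ligands, with -0.91 for Lgr5 high minus Lgr5 medium at Ki67 low (limma, adjusted p = 0.0685). Smad5, a BMP receptor SMAD, came nearest among the SMADs, with 0.26 in the averaged Lgr5 comparison (limma, adjusted p = 0.0517).

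Among 10 measured antagonists, 1 passed in at least 1 of the 7 comparisons, as 8.25% of all genes did. Bambi, a pseudoreceptor without a kinase domain, was 7.20 and 6.38 in Lgr5-medium Ki67-low and 6.14, 5.82, 5.62 and 5.49 in Lgr5-medium Ki67-high. Its levels in Lgr5-high cells were 6.60 and 6.45 at Ki67 high and 5.93 and 6.24 at Ki67 low. The difference at Lgr5 medium was 1.02 (SE 0.23; limma, adjusted p = 0.0402). The call was kept in 8 of 19 alternatives. It was lost without Lgr5-medium Ki67-low replicate 1 (0.61, limma adjusted p = 0.425), without any of the 4 Lgr5-high arrays, and without Lgr5-medium Ki67-high replicate 2, 3 or 4.

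Of 10 other BMP target genes, 3 passed in at least 1 of the 7 comparisons, beside the 8.25% of all genes. Atoh8, a basic helix-loop-helix factor, was 5.46 and 5.47 in Lgr5-high Ki67-high, 5.44 and 5.78 in Lgr5-high Ki67-low, 4.20, 4.52, 4.87 and 4.67 in Lgr5-medium Ki67-high, and 5.14 and 5.10 in Lgr5-medium Ki67-low. All Lgr5-high arrays lay above all Lgr5-medium arrays, and the averaged difference was 0.69 (limma, adjusted p = 0.0130), lost without either Lgr5-high Ki67-high array or Lgr5-high Ki67-low replicate 2. Id4, the remaining Id gene, was 4.69 and 4.74 in Lgr5-medium Ki67-low and between 3.89 and 4.13 on the other 8 arrays. Id4 was thus a dim gene, below 5.06, the median of the gene means, on every array. Its difference at Lgr5 medium was 0.76 (SE 0.083; limma, adjusted p = 0.000711). Klf4, a factor of goblet and differentiated cells, was 8.14 and 7.30 in Lgr5-medium Ki67-low and 6.45 to 6.94 elsewhere (difference at Lgr5 medium 0.85, limma adjusted p = 0.0419). That Klf4 call was kept in 6 of 19 alternatives. It was lost without any single array other than Lgr5-medium Ki67-low replicate 2, and the difference was 0.43 without replicate 1 of that group (limma, adjusted p = 0.327). In the averaged Lgr5 comparison, Id4 (-0.32, limma adjusted p = 0.0194) was kept in 13 of 18 alternatives and lost without Lgr5-high Ki67-high replicate 2, Lgr5-high Ki67-low replicate 1 or either Lgr5-medium Ki67-low array. Klf4 (-0.58, adjusted p = 0.0489) was kept there in 7 of 18. It was lost without any of the 4 Lgr5-high arrays, Lgr5-medium Ki67-high replicates 1, 2 or 3, or Lgr5-medium Ki67-low replicate 1.

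Id4 and Klf4 had their highest values in Lgr5-medium Ki67-low. Bambi did so in replicate 1 of that group, while replicate 2 (6.38) lay below both Lgr5-high Ki67-high arrays. All measured enteroendocrine, tuft and goblet markers were above their Lgr5-medium Ki67-high level there, and 19 of 20, 12 of 14 and 10 of 11 passed the threshold, beside 3.58% of all genes. Of 8 Paneth markers, all were higher and 3 passed. Summed on the linear scale, the enteroendocrine markers ran from 8761 to 8795 there and from 951 to 2346 on the other arrays. The tuft markers ran from 2147 to 3660 against 275 to 572, and the goblet markers from 29826 to 33338 against 13002 to 17816. Of 18 immediate early genes, which respond to stress and cell dissociation, 17 had a positive difference in the same comparison (median 0.36) and 0 passed in limma, with 2 at an unadjusted p under 0.05. Their sum was 14503 in Lgr5-medium Ki67-low replicate 1, the array with the highest Klf4 and Bambi, and 7366 in replicate 2. Sums of 12681 and 11245 were seen in Lgr5-high Ki67-low replicate 2 and Lgr5-medium Ki67-high replicate 3. Klf4 was 6.88 and 6.93 on those arrays, and Bambi 6.24 and 5.62. At Lgr5 high, 17 of the 18 immediate early genes also had a positive Ki67 difference (median 0.41), and 0 passed in limma. The part of these genes, of Vim and of the marker lists in the Id4, Klf4, Bambi and Rgmb values was not tested. Rgmb had its highest values in Lgr5-high Ki67-low, where the enteroendocrine sum ran from 1249 to 1490. In the averaged Lgr5 comparison, 17 of 20 enteroendocrine, 10 of 14 tuft and 8 of 11 goblet markers passed in limma as lower at Lgr5 high. So did 3 of 15 enterocyte markers (median -0.41), beside 5.92% of all genes in either direction. At Ki67 low, 19 enteroendocrine, 11 tuft, 11 goblet and 1 enterocyte marker passed as lower, beside 2.84%. In both comparisons 0 markers of these lists passed as higher. Within Ki67-high cells, where Rgmb was 2.39-fold higher at Lgr5 high, 0 of the enteroendocrine, tuft and goblet markers passed in limma, and 5 enteroendocrine, 2 tuft and 1 goblet marker had an unadjusted p under 0.05. The summed enteroendocrine markers ran from 1943 to 2346 in Lgr5-high Ki67-high and from 951 to 1737 in Lgr5-medium Ki67-high, without overlap. All 8 Paneth markers had a positive difference there (median 0.72), with 0 past the threshold and 5 at an unadjusted p under 0.05, and their sum ran from 17548 to 17762 against 10753 to 15651. The part of all these markers in the Rgmb differences between Lgr5 levels was not tested. All 12 crypt base stem cell markers, among them Lgr5, had a positive averaged Lgr5 difference, and 11 passed, beside 5.92% of all genes. All 12 were also higher in Ki67-low than in Ki67-high cells at Lgr5 medium (median 0.29), and 3 passed in limma. Lgr5 itself was 1.196 higher in that comparison (limma, adjusted p = 0.000986). At Lgr5 high, all 12 had a positive Ki67 difference as well (median 0.34), and 0 passed in limma. The part of the stem cell markers in the Rgmb differences was not tested.

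Of 7 basic helix-loop-helix factors that Id proteins can affect, 4 passed in at least 1 of the 7 comparisons, again beside 8.25% of all genes. Neurod1, Neurog3 and Atoh1, which drive secretory fates, rose at Lgr5 medium with low Ki67 by 2.52, 1.76 and 1.66 log2 units (limma, adjusted p = 6.21e-05, 0.00181 and 0.00206). Each of the 3 is itself among the enteroendocrine or goblet markers. Ascl2, a stem cell factor, was higher at Lgr5 high, by 0.87 averaged over Ki67 (limma, adjusted p = 0.00556). The ubiquitous partners Tcf3, Tcf4 and Tcf12 did not pass in any comparison.

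**Figure D4:**
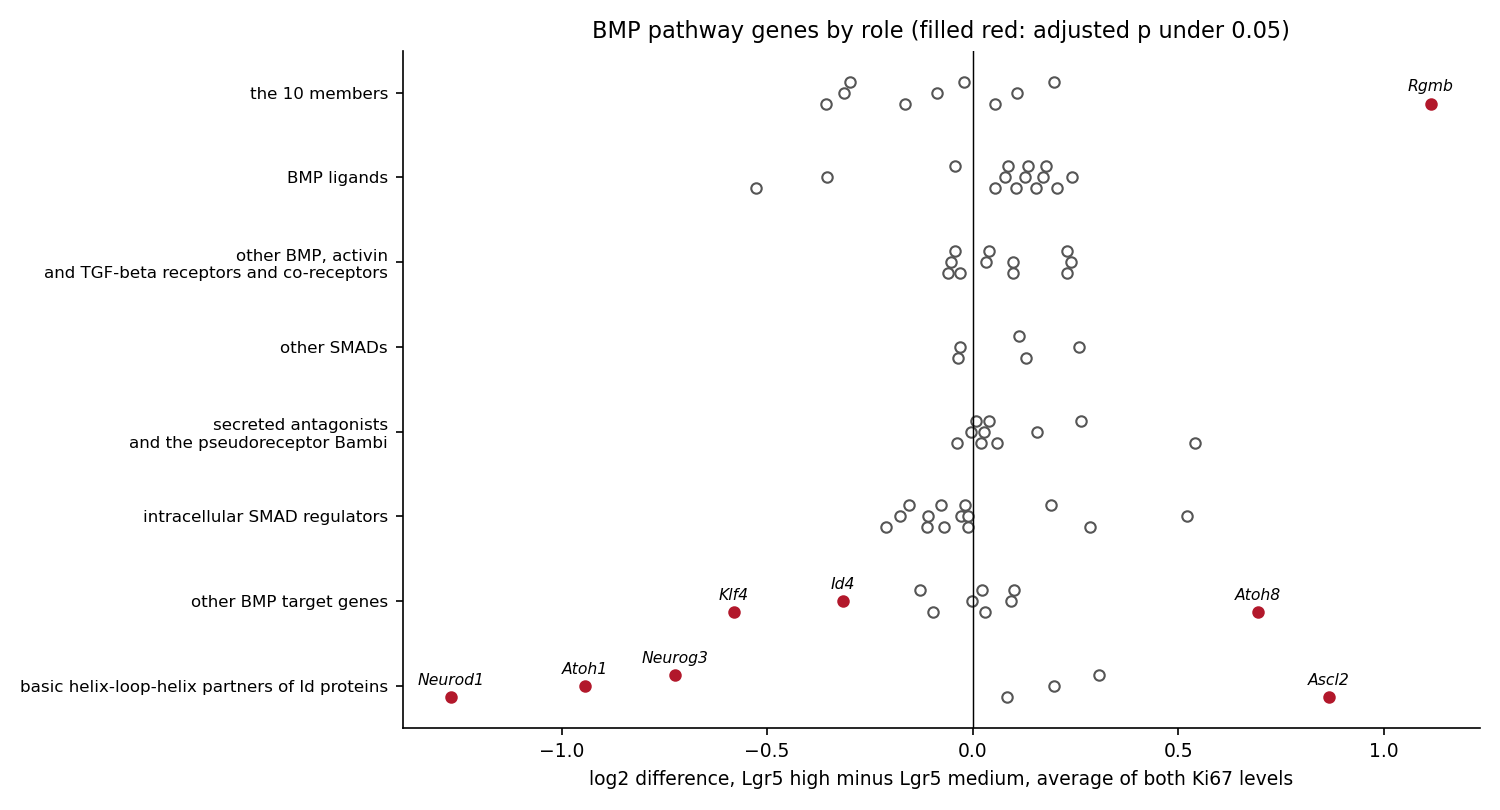
Averaged Lgr5 high minus Lgr5 medium differences (log2, horizontal axis) of the 10 genes and of each list of pathway genes, 1 point per gene; named red points passed an adjusted p of 0.05. Rgmb (1.11), Atoh8 (0.69) and Ascl2 (0.87) lie to the right. Neurod1 (-1.27), Atoh1 (-0.94), Neurog3 (-0.72), Klf4 (-0.58) and Id4 (-0.32) lie to the left.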

How the data were processed

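RNA of 10 sorted samples was measured on 1-colour arrays. The deposited table gives log2 values for 35556 probe sets. Per the submitters' processing notes, MAS5 and GCOS were used, with no version or role stated; this array type lacks the mismatch probes MAS5 uses, so the program is unknown. For background correction, summary, normalization and log base, the method is not given in the sources used here. Values of 1.16 to 13.8 were read as log2; another base would change the unit of the differences, not their direction or tests. Signal over background was not used here.

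Names came from the platform annotation: 21218 probe sets had 1 symbol, 1881 several, and 12457 are unnamed here. Entrez numbers matched RefSeq (GRCm38.p6) for 21185, and 0 symbols changed. The probe set with the highest mean stood for each of 18820 genes. limma 3.58.1 (R 4.3.3) fitted 1 mean per group to all 10 arrays (6 residual degrees of freedom), followed by eBayes and Benjamini-Hochberg adjustment over all genes within a comparison, with threshold 0.05. The fitting code was tested on simulated data. Members and lists were chosen with earlier results of these data known. All members were named; of each list, up to 4 genes past the threshold, and for a member past it the 3 genes with the most similar profile. Comparisons share groups, so their results are not independent. Alternatives changed the normalization, filter, probe set rule, array weights, variance prior, rows tested, block and groups fitted, and left out each array.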

Additional observations from a re-analysis of the deposited data

Results flagged for a closer look

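None of the 10 members was set apart by an outlying array in the group of 4, or by a Ki67 difference that changed between Lgr5 levels. Among the listed pathway genes, 4 had a Ki67 difference that was lower at Lgr5 high than at Lgr5 medium by the limma interaction test. The values were -2.02 for Atoh1, -0.838 for Id4, -2.97 for Neurod1 and -1.93 for Neurog3 (limma, adjusted p = 0.0174, 0.0115, 0.000861 and 0.0273). The Neurod1 call was kept in all 18 alternatives. The Id4 call was kept in 15 of 18, and among arrays left out it was lost without Lgr5-high Ki67-high replicate 1 or Lgr5-high Ki67-low replicate 1. The Atoh1 call was kept in 12 of 18 and the Neurog3 call in 10 of 18, and both were lost without any 1 of the 4 Lgr5-high arrays.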

How the results depend on the processing

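Rgmb passed the averaged Lgr5 comparison in all 18 alternatives (1.03 to 1.202, adjusted p 0.000269 to 0.0125). None of the 4 member differences past the threshold turned sign, while 25 of all 70 did in at least 1 alternative, among them the averaged Lgr5 difference of Acvr2a (up to 0.058). The count of members past the threshold, 1 in each of 4 comparisons, moved elsewhere. For Ki67 at Lgr5 medium it was 2 with arrays centred, 0 with all table entries tested, 0 with only 2 groups fitted and 0 with the replicate block, and 0 to 2 without single arrays. For Lgr5 at Ki67 high it was 3 with array weights, 0 with all entries tested, 0 with the replicate block, and 0 to 2 without single arrays. For Lgr5 at Ki67 low it was 0 with all entries, 0 with 2 groups, and 0 to 1 without single arrays. For the averaged Lgr5 difference it was 4 with array weights, adding Smad6, Smad7 and Id3, and 1 to 3 without single arrays. For the averaged Ki67 difference it was 1 in place of 0 with array weights and 1 with an intensity trend, and 0 to 1 without single arrays. Samples that share a replicate number did not deviate together (correlations from -0.30 to 0.013). Between samples of different numbers and groups the correlations ran from -0.450 to 0.450. The main fit models neither, and the block rests on a shared number alone. With it, Rgmb had 0.54 for Ki67 at Lgr5 medium (adjusted p = 0.215) and 1.11 for Lgr5 at Ki67 high (0.103), and the Id4 interaction was lost. A group left with 1 array was assumed to vary like the others. Over all genes, calls for Ki67 at Lgr5 medium were 674 (499 higher), 1184 (417 higher) with arrays centred, 352 with the block and 373 with 2 groups. For Lgr5 at Ki67 high they were 176, with 1135 under weights, 8 with all entries, 6 with the block and 107 with 2 groups. For Lgr5 at Ki67 low they were 534 (124 higher), with 581 (253 higher) centred, 803 under weights, 318 with all entries and 274 with 2 groups. A crossed pairing, added after seeing the data, gave 1238. For averaged Lgr5 they were 1115, with 1975 under weights and 628 with all entries; for averaged Ki67 233, 530 and 104; for the interaction 196, 299, 124 and 128 with the block. Without single arrays these 6 counts ran over 264 to 779, 0 to 327, 198 to 921, 359 to 1708, 30 to 381 and 79 to 292. The causes were not tested. Group sizes of 2 limit precision.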
